A study of Homo sapiens with 10 samples.

Results

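The 10 enzymes described here make serine, one-carbon units and proline, and were followed by ribosome profiling in surviving pancreatic cancer cells. They were chosen by Ensembl gene ID, with earlier results of these data known, and all 10 were found among the 20289 genes listed. Serine synthesis is represented by PHGDH (ENSG00000092621, chr1:119711934-119744215), PSAT1 (ENSG00000135069, chr9:78297125-78330093) and PSPH (ENSG00000146733, chr7:56011064-56051444). The serine hydroxymethyltransferases are SHMT1 (ENSG00000176974, chr17:18327873-18363550) and SHMT2 (ENSG00000182199, chr12:57229711-57234935). The mitochondrial folate enzymes are MTHFD2 (ENSG00000065911, chr2:74198615-74217565), MTHFD1L (ENSG00000120254, chr6:150865702-151101887) and ALDH1L2 (ENSG00000136010, chr12:105019790-105084458). Proline synthesis is represented by PYCR1 (ENSG00000183010, chr17:81932391-81937300) and ALDH18A1 (ENSG00000059573, chr10:95605941-95656711), with all positions from RefSeq on GRCh38.p14. The names of these 10 IDs were given with the choice of genes, and the other IDs carry no names here, so markers of the labelled cell type and other genes of these pathways were not checked. Ribosome profiling sequences the stretches of mRNA that ribosomes shield from nuclease, and its level combines the amount of mRNA with its translation. No matched mRNA measurement was used here, so the 2 cannot be told apart.

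The libraries came from PANC-1 and CFPAC-1, established human pancreatic ductal adenocarcinoma lines. PANC-1 was represented by 4 libraries with 1 µM imidazole ketone erastin (IKE) and 2 with 0.1% DMSO, and CFPAC-1 by 2 libraries with 10 µM IKE and 2 with 0.1% DMSO. IKE is an erastin derivative that blocks cystine import and induces ferroptosis, an iron-dependent death by lipid peroxidation. The treatment labels give 24 h in all 4 groups, while the extract protocol speaks of several consecutive days, so the length of exposure is not settled. Dead cells were removed, so a change within cells and a loss of cells that had another level cannot be told apart. The labels call the replicates biological and do not say whether they came from separate cultures on separate days, so the p-values measure the spread between these libraries. In the main model each SE pools the spread of both lines and draws on the other genes, so it is not the scatter of a single line's libraries.

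Serine is made from the glycolytic intermediate 3-phosphoglycerate by PHGDH, PSAT1 and PSPH in turn. SHMT1 in the cytosol and SHMT2 in mitochondria pass a carbon of serine to folate, and the mitochondrial enzymes MTHFD2, MTHFD1L and ALDH1L2 oxidise it to formate or carbon dioxide. Proline is made in mitochondria from glutamate by ALDH18A1 and PYCR1. Many of these genes are known targets of ATF4, the transcription factor of the amino acid and integrated stress responses, and serine also supplies the carbon skeleton of cysteine through transsulfuration.

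Levels are in FPKM, footprint fragments scaled for gene length and library size. Which length was used is not given here, and whether levels of different genes are comparable was not tested. Absolute depth was not given with the values. From the steps of low values, with CFPAC-1 DMSO replicate 1 as 1, relative depth was 0.874, 0.239, 0.50 and 0.210 across PANC-1 IKE libraries 1 to 4, 0.503 and 0.330 in PANC-1 DMSO, 1.17 and 0.973 in CFPAC-1 IKE and 0.917 in the remaining CFPAC-1 DMSO library. As a share of a library's total FPKM, its 10 most abundant genes took 9.29%, 16.2%, 12.2% and 23.1% across the PANC-1 IKE replicates, against 8.51% and 8.58% for PANC-1 DMSO. In CFPAC-1 that share was 8.74% to 9.64%. The 10 enzymes together made up 0.0521% ± 0.0120 (SD, n = 4) of the total in PANC-1 IKE and 0.0467% ± 0.0056 (n = 2) in PANC-1 DMSO. Their share was 0.0488% ± 0.0034 (n = 2) in CFPAC-1 IKE and 0.0270% ± 0.0029 (n = 2) in CFPAC-1 DMSO. Fold changes are on the log2(FPKM + 1) scale, and an enzyme is named as called where its p, adjusted over the 13125 genes that averaged 1 FPKM or more, was under 0.05.

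**Figure D1:**
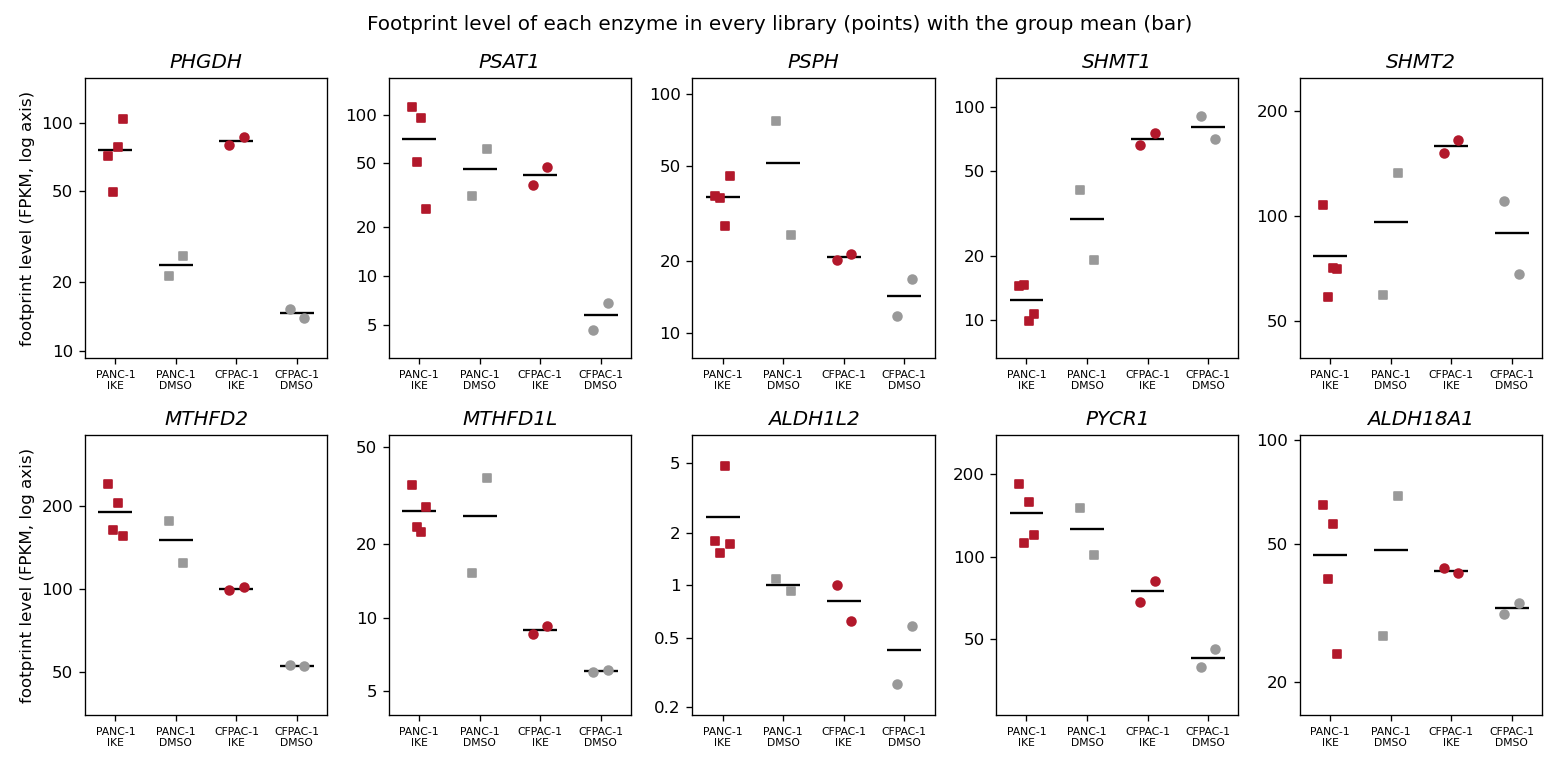
Footprint level in FPKM (vertical log axis) of each enzyme in every library, with PANC-1 as squares and CFPAC-1 as circles, IKE in red and DMSO in grey, and the group mean as a bar. In CFPAC-1 the IKE points lie above the DMSO points for 9 of 10 enzymes, all but SHMT1, while in PANC-1 they do so for PHGDH and ALDH1L2.

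Among the 10 enzymes, those of the opening steps of serine synthesis had the largest fold changes in CFPAC-1 with 10 µM IKE. PHGDH rose to a mean of 83.5 ± 4.9 FPKM with IKE, against 14.6 ± 0.9 FPKM with DMSO (SD, n = 2 each), and PSAT1 rose to 42.1 ± 7.4 FPKM, against 5.75 ± 1.56 FPKM. MTHFD2 rose less, to 100.3 ± 2.1 FPKM with IKE against 52.9 ± 0.3 FPKM with DMSO. These 3 of 10 enzymes were called higher and 0 lower, where 0.267% of the 13125 genes tested were called higher and 0.0838% lower. At an unadjusted p under 0.05, 7 were higher, where 5.97% of genes were, and 0 lower, where 5.77% were. The median log2 fold change was 0.66 over the 10 enzymes and -0.01 over all genes tested. Because the enzymes were chosen with earlier results of these data known, these shares describe them and do not test them as a set. The same holds for the other comparisons below.

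PHGDH, which takes 3-phosphoglycerate out of glycolysis, was at 80.0 and 86.9 FPKM in the IKE libraries, against 15.2 and 13.9 FPKM in the DMSO libraries. The groups lay far apart and each pair of replicates was close. Its log2 fold change was 2.44 ± 0.17 (SE), with an adjusted p of 0.000136 by limma, and it ranked 2 by p among all genes tested. PSAT1, the transaminase of the next step, was at 36.9 and 47.4 FPKM with IKE, against 4.65 and 6.85 FPKM with DMSO. Both IKE libraries lay above both DMSO libraries, and the log2 fold change was 2.68 ± 0.30 (SE), with an adjusted p of 0.00273 by limma. PSPH, the phosphatase that releases serine, was at 20.1 and 21.5 FPKM with IKE, against 11.8 and 16.9 FPKM with DMSO. Its groups did not overlap either, but the log2 fold change of 0.53 ± 0.24 was not called (limma adjusted p = 0.42), with a 95% interval of 0.0044 to 1.05. Summed over these 3 enzymes the level was 137 and 156 FPKM with IKE, against 31.7 and 37.6 FPKM with DMSO.

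Neither serine hydroxymethyltransferase was called. SHMT2 was at 152 and 166 FPKM with IKE, against 111 and 68.5 FPKM with DMSO, a log2 fold change of 0.85 ± 0.24 that was not called (limma adjusted p = 0.196). SHMT1 was at 66.4 and 75.5 FPKM with IKE, against 91.2 and 70.7 FPKM with DMSO, the single enzyme of the 10 whose groups overlapped. Its log2 fold change was -0.18 ± 0.20 (limma adjusted p = 0.813), with a 95% interval of -0.62 to 0.26. The direction of SHMT1 rests on DMSO replicate 1, without which the log2 fold change was 0.0014.

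Of the mitochondrial folate enzymes, MTHFD2, a dehydrogenase and cyclohydrolase known for high expression in tumours and embryonic tissue, was at 98.8 and 102 FPKM with IKE, against 53.1 and 52.7 FPKM with DMSO. Its replicates lay closer together than those of any other enzyme here in the DMSO group, and the log2 fold change was 0.91 ± 0.15 (SE), with an adjusted p of 0.0249 by limma. MTHFD1L, which releases formate, was at 8.59 and 9.28 FPKM with IKE, against 6.0 and 6.11 FPKM with DMSO, a log2 fold change of 0.49 ± 0.20 that was not called (limma adjusted p = 0.378). ALDH1L2, which oxidises formyl-tetrahydrofolate to carbon dioxide and yields mitochondrial NADPH, was barely covered, at 1.00 and 0.62 FPKM with IKE against 0.27 and 0.58 FPKM with DMSO. At that level the groups were almost in contact, and its log2 fold change of 0.35 ± 0.26 was not called (limma adjusted p = 0.675).

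Both proline enzymes were higher with IKE in both libraries without passing the threshold. PYCR1, the reductase of the last step, was at 68.3 and 81.3 FPKM with IKE, against 39.6 and 45.9 FPKM with DMSO (log2 fold change 0.79 ± 0.17; limma adjusted p = 0.102). ALDH18A1, which makes pyrroline-5-carboxylate, was at 42.8 and 41.3 FPKM with IKE, against 31.5 and 34.0 FPKM with DMSO (0.35 ± 0.24; limma adjusted p = 0.62). With median-ratio scaling of the libraries PYCR1 was called as well, at 0.83 (limma adjusted p = 0.0438), which made 4 of 10. In all, IKE lay above DMSO without overlap for 9 of 10 enzymes, where 20.2% of genes tested did so.

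The CFPAC-1 calls depended on how spread was shared between the lines. On simulated data the model behind these calls made more false calls in CFPAC-1 than its threshold states. That simulation took each gene's observed spread in each line as its true spread, and other settings were not tried. With 1 spread for both lines, or with CFPAC-1 fitted alone on the same genes, 0 of 10 were called (limma adjusted p for PHGDH = 0.101 and 0.142). CFPAC-1 fitted alone on the genes with at least 1 FPKM in that line called PHGDH (limma adjusted p = 0.00924) and PSAT1 (0.0345) but not MTHFD2 (0.119). That filter was chosen after seeing the data. The call of PSAT1 was lost without DMSO replicate 1 (0.0681) or IKE replicate 2 (0.0532), and that of MTHFD2 when any 1 of the 4 CFPAC-1 libraries was left out (0.120 to 0.170), without PANC-1 IKE replicates 2 and 4 (0.0591), and with the replicate number as a block (0.148).

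**Figure D2:**
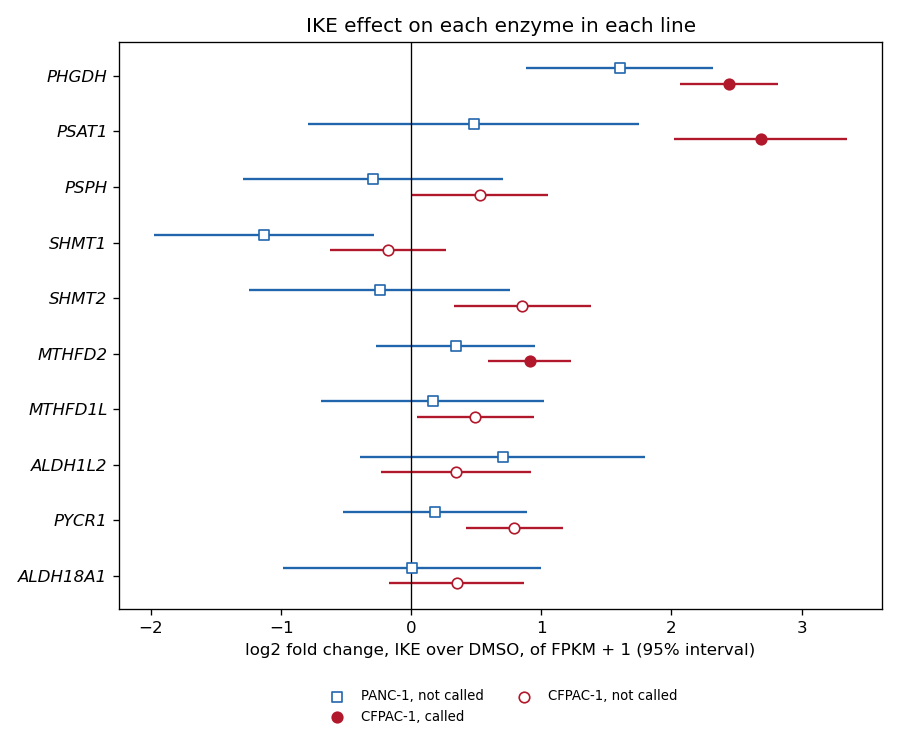
Log2 fold change of IKE over DMSO on the log2(FPKM + 1) scale with its 95% interval (horizontal axis) for each enzyme, PANC-1 as blue squares above CFPAC-1 as red circles, filled where called. The 3 filled points are PHGDH, PSAT1 and MTHFD2 in CFPAC-1.

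Promoter windows from RefSeq (GRCh38.p14, 250 bases before and 50 from the start site) were on hand for 6 of the 10 enzymes and were not tested for binding or activity in these cells. The windows of the 3 enzymes called higher in CFPAC-1 are shown, with that of MTHFD1L. Of the 6 enzymes with a window, MTHFD1L alone held an exact match to the core of the C/EBP-ATF response element through which ATF4 acts. Variant forms of the element and sites outside these windows were not searched, so a window without a match does not show that an enzyme lacks such a site. The motifs TGATGNAA and TTGCATCA (that core, where the reverse complement of the second is a case of the first), CACGTG (the E-box) and TGACNNNGC (the antioxidant response element core) were searched on both strands, and capitals mark the matches.
PHGDH, chr1:119711684-119711983, plus strand: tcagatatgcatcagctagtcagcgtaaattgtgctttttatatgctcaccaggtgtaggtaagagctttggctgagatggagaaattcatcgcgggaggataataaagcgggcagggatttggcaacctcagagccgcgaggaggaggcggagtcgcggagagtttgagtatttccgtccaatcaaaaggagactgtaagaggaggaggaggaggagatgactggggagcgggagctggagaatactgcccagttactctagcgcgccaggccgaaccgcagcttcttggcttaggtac
PSAT1, chr9:78296875-78297174, plus strand: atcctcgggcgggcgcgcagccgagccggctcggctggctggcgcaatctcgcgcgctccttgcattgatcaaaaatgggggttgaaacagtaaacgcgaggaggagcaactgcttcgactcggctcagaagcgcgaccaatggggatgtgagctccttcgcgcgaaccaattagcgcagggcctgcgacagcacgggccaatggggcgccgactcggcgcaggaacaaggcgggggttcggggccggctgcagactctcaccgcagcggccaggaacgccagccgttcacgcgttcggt
MTHFD2, chr2:74198365-74198664, plus strand: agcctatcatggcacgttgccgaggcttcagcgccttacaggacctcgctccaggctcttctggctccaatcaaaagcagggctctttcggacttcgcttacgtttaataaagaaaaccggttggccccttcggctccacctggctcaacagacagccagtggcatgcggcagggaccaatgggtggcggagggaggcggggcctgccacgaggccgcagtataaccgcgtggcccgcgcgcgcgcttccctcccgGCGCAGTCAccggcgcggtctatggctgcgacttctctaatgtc
MTHFD1L, chr6:150866236-150866535, plus strand: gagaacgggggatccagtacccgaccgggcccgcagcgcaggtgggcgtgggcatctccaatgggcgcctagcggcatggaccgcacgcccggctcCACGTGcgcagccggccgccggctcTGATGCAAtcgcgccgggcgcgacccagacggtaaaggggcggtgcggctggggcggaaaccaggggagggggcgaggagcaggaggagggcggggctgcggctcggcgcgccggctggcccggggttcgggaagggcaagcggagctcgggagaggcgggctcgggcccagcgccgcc
The windows of PHGDH and PSAT1 held none of the 4 motifs. The MTHFD2 window held the antioxidant core at bases 257 to 265. The MTHFD1L window held the E-box at bases 97 to 102 and the response element core, TGATGCAA, at bases 122 to 129. Among 35116 windows of the same length, 3.62% held TGATGNAA, 0.866% TTGCATCA, 7.26% CACGTG and 13.3% TGACNNNGC. RefSeq gave MTHFD1L 4 start sites, of which 3 had the core in their window, and the window shown is the one listed at the top. These 3 windows overlap and hold the same single genomic copy of the core. In the window from base 150866083 it lay past the start site, at bases 275 to 282. SHMT1 held no match, and ALDH18A1 held CACGTG at bases 115 to 120.

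In PANC-1 with 1 µM IKE none of the 10 enzymes was called, and the same enzymes were far more variable. PHGDH was at 71.7, 49.8, 78.1 and 104 FPKM in IKE replicates 1 to 4, against 21.4 and 26.0 FPKM in the DMSO libraries. All 4 IKE libraries lay above both DMSO libraries, and the log2 fold change was 1.60 ± 0.33 (SE), with an adjusted p of 0.315 by limma and a 95% interval of 0.88 to 2.32. SHMT1 was at 14.5, 14.6, 9.95 and 10.6 FPKM with IKE, against 40.9 and 19.1 FPKM with DMSO, below both DMSO libraries in 4 of 4 (log2 fold change -1.13 ± 0.38; limma adjusted p = 0.399). These were also the only 2 enzymes with an unadjusted p under 0.05 by limma, 1 higher where 4.65% of the 13125 genes were and 1 lower where 6.24% were. The size of SHMT1 rests on the DMSO libraries, at -0.60 without DMSO replicate 1, where it was no longer under that threshold, and -1.66 without DMSO replicate 2. Over all genes 0% were called, and the median log2 fold change was 0.17 over the 10 enzymes and -0.02 over all genes.

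PSAT1 showed the widest range, at 112, 50.7, 95.4 and 26.2 FPKM in IKE replicates 1 to 4 against 31.5 and 61.0 FPKM with DMSO. IKE replicate 4 lay below both DMSO libraries while replicates 1 and 3 lay above them. The log2 fold change was 0.48 ± 0.58 (limma adjusted p = 0.78), with a 95% interval of -0.79 to 1.75. With 1 library left out it ran from 0.012 without DMSO replicate 1 to 0.95 without DMSO replicate 2, and it was 0.20 without IKE replicate 1, 0.27 without IKE replicate 3, 0.88 without IKE replicate 4 and 1.22 without IKE replicates 2 and 4. PSPH was at 37.6, 36.8, 27.9 and 45.3 FPKM with IKE, all between the DMSO libraries at 77.4 and 25.7 FPKM. SHMT2 was at 108, 58.9, 71.1 and 70.8 FPKM with IKE, against 59.4 and 133 FPKM with DMSO. Neither had a direction that held, since the log2 fold change of PSPH was -0.29 but 0.48 without DMSO replicate 1, and that of SHMT2 was -0.24 but 0.33 without DMSO replicate 2.

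MTHFD2 was at 239, 163, 204 and 156 FPKM with IKE, against 176 and 124 FPKM with DMSO, overlapping groups with a log2 fold change of 0.34 ± 0.28 (limma adjusted p = 0.667). MTHFD1L was at 34.8, 23.6, 22.5 and 28.4 FPKM with IKE, all within the DMSO values of 15.2 and 37.2 FPKM. ALDH1L2 was at 1.80, 1.53, 4.83 and 1.73 FPKM with IKE, against 1.08 and 0.93 FPKM with DMSO. Its groups did not overlap, but the level was low and replicate 3 stood well above the rest (log2 fold change 0.70 ± 0.50; limma adjusted p = 0.615). PYCR1 was at 185, 113, 158 and 120 FPKM with IKE, against 151 and 102 FPKM with DMSO. ALDH18A1 was at 64.9, 39.9, 57.4 and 24.2 FPKM with IKE, against 27.3 and 68.8 FPKM with DMSO, and its log2 fold change was 0.0048 ± 0.4496. In all, IKE lay above DMSO without overlap for 2 of 10 enzymes, PHGDH and ALDH1L2, where 10.2% of genes did, and below it for 1, SHMT1, where 12.2% did.

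The spread of the PANC-1 controls limits these comparisons. The higher DMSO library exceeded the lower by 3.01-fold for PSPH, 2.52-fold for ALDH18A1, 2.44-fold for MTHFD1L, 2.25-fold for SHMT2 and 2.14-fold for SHMT1, but by 1.22-fold for PHGDH. On FPKM + 1 the DMSO replicates differed by at least 1.5-fold for 6 of 10 enzymes in PANC-1, where 43.9% of genes did, and for 1 of 10 in CFPAC-1, where 13.3% of genes did. DMSO replicate 1 was the higher library for PSPH and SHMT1 and the lower for SHMT2, MTHFD1L, ALDH18A1 and PSAT1.

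The mean of both lines' effects was called for PHGDH alone, higher in 4 of 4 PANC-1 and 2 of 2 CFPAC-1 IKE libraries. Its mean log2 fold change was 2.02 ± 0.18 (SE), with an adjusted p of 0.00405 by limma, the smallest p of all 13125 genes, of which 0.0381% were called higher. The call was lost without PANC-1 DMSO replicate 1 (limma adjusted p = 0.0631) or replicate 2 (0.0738), and with the replicate block (1.00), which uses only replicates 1 and 2. PSAT1 followed at 1.58 ± 0.33 (0.247) and MTHFD2 at 0.63 ± 0.16 (0.382), and SHMT1 had the single negative value, -0.66 ± 0.22 (0.417).

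The difference of the IKE effects, PANC-1 minus CFPAC-1, was called for 0 of 10 enzymes with limma, where 0.0229% of all genes were called, and 2 enzymes were lower at an unadjusted p under 0.05, where 7.28% of genes were. Line and dose change together in this comparison. PSAT1 had a log2 fold change of 0.48 ± 0.58 in PANC-1 and 2.68 ± 0.30 in CFPAC-1, which leaves -2.20 ± 0.65 (adjusted p = 0.264 by limma) with a 95% interval of -3.64 to -0.77. PHGDH had 1.60 ± 0.33 in PANC-1 and 2.44 ± 0.17 in CFPAC-1, which leaves -0.84 ± 0.37 (adjusted p = 0.386 by limma; interval -1.65 to -0.03). The unadjusted limma p of PSAT1 passed 0.05 without PANC-1 DMSO replicate 2 (0.0601), and its difference was -1.47 without PANC-1 IKE replicates 2 and 4. That of PHGDH, 0.0441 with all libraries, passed 0.05 when any 1 library other than PANC-1 IKE replicate 4 was left out, reaching 0.161 without PANC-1 DMSO replicate 2. The difference was below 0 for 9 of 10 enzymes and above 0 for ALDH1L2, at 0.36 ± 0.56, where 49.3% of genes lay above 0, and the median was -0.71 over the 10 enzymes and -0.01 over all genes. The enzymes were chosen with earlier results known, so this count and median describe them and do not test them as a set. For SHMT2 the interval was -2.23 to 0.03 and for MTHFD2 it was -1.26 to 0.12, so these data leave room for equal effects and for large differences alike.

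**Figure D3:**
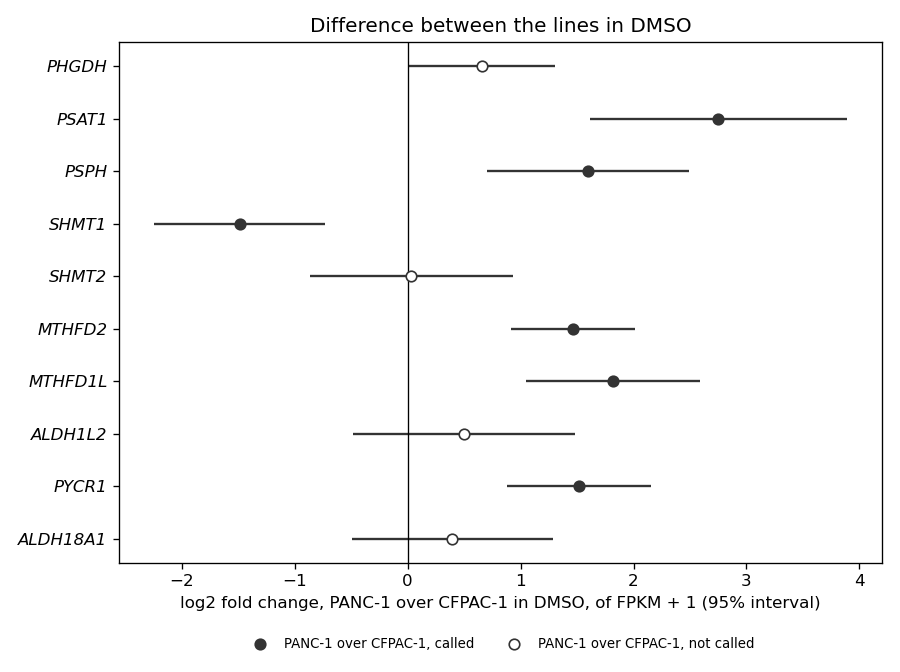
Log2 fold change of PANC-1 over CFPAC-1 in DMSO on the log2(FPKM + 1) scale with its 95% interval (horizontal axis) for each enzyme, filled where called. The filled points of PSAT1, PSPH, MTHFD2, MTHFD1L and PYCR1 lie above 0, and that of SHMT1 lies below it.

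Before any IKE the lines differed in these enzymes. PSAT1 was higher in PANC-1, at 46.2 ± 20.9 FPKM against 5.75 ± 1.56 FPKM in CFPAC-1 (SD, n = 2 each), as were MTHFD1L at 26.2 ± 15.5 against 6.06 ± 0.08 FPKM and PSPH at 51.6 ± 36.5 against 14.3 ± 3.6 FPKM. PYCR1 was higher too, at 126 ± 35 FPKM in PANC-1 against 42.8 ± 4.4 FPKM in CFPAC-1, and so was MTHFD2 at 150 ± 37 against 52.9 ± 0.3 FPKM. SHMT1 was lower, at 40.9 and 19.1 FPKM in PANC-1 against 91.2 and 70.7 FPKM in CFPAC-1. In all 5 enzymes were called higher, where 16.8% of the 13125 genes were, and 1 lower, where 21.1% were. The labels name DMEM or IMDM as the medium without saying which line grew in which, so line and medium cannot be told apart.

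PSAT1 had the largest difference of the 10, a log2 fold change of 2.75 ± 0.52 (SE), with an adjusted p of 0.00177 by limma, followed by MTHFD1L at 1.82 ± 0.35 (0.0020), PSPH at 1.60 ± 0.41 (0.01), PYCR1 at 1.52 ± 0.29 (0.00191) and MTHFD2 at 1.46 ± 0.25 (0.000944). SHMT1 stood at -1.49 ± 0.34 (limma adjusted p = 0.00603). PHGDH, whose PANC-1 libraries (21.4 and 26.0 FPKM) stood clear of the CFPAC-1 libraries (15.2 and 13.9 FPKM), came to 0.66 ± 0.29, which was not called (limma adjusted p = 0.101). SHMT2, ALDH18A1 and ALDH1L2 were not called either, with 95% intervals of -0.87 to 0.93, -0.49 to 1.29 and -0.48 to 1.48. The median was 1.06 over the 10 enzymes and -0.03 over all genes. Quantile normalization moved the median of all genes to 0.10 and left the 6 calls and their directions in place. The call of PSPH was lost without PANC-1 DMSO replicate 1 (limma adjusted p = 0.229), and those of SHMT1 and MTHFD1L without PANC-1 DMSO replicate 2 (0.12 and 0.0514).

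The order of levels also differed between the lines. In PANC-1 with DMSO the highest mean was that of MTHFD2 at 150 FPKM, then PYCR1 at 126 FPKM and SHMT2 at 96.4 FPKM, and ALDH1L2 was lowest at 1.00 FPKM. Of the 9 neighbouring pairs in that order, 8 overlapped in their libraries' ranges, so the order among them is not settled. In CFPAC-1 with DMSO SHMT2 was highest at 89.7 FPKM, overlapping SHMT1 at 81.0 FPKM, then MTHFD2 at 52.9 FPKM, PYCR1 at 42.8 FPKM and ALDH18A1 at 32.8 FPKM, and 6 of 9 pairs stood apart. PHGDH held place 6 in CFPAC-1 DMSO, overlapping PSPH, and place 3 in CFPAC-1 IKE, overlapping PYCR1. PSAT1, which was at place 9 in CFPAC-1 DMSO and overlapped MTHFD1L, reached place 6 with IKE and overlapped ALDH18A1.

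**Figure D4:**
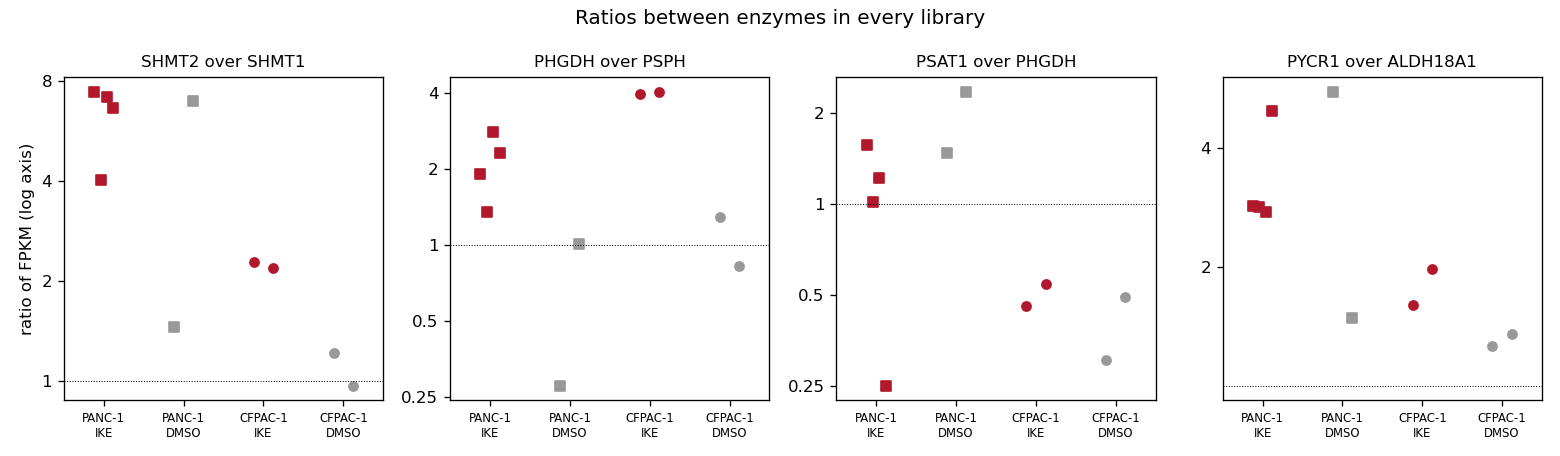
Ratio of the FPKM of enzyme pairs within each library (vertical log axis), PANC-1 as squares and CFPAC-1 as circles, IKE in red and DMSO in grey, with a dotted line at equal FPKM. SHMT2 over SHMT1 was 4.03 to 7.42 in PANC-1 IKE and 2.19 to 2.28 in CFPAC-1 IKE, and PHGDH over PSPH lay higher with IKE than with DMSO in both lines.

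Ratios within a library do not depend on its scaling. SHMT2 over SHMT1, the balance of the mitochondrial and cytosolic forms, was 7.42, 4.03, 7.15 and 6.66 across the PANC-1 IKE libraries, against 1.45 and 6.98 in PANC-1 DMSO. In CFPAC-1 it was 2.28 and 2.19 with IKE, against 1.22 and 0.969 with DMSO, which did not overlap. For this ratio the exact two-sided permutation p was 0.2 in PANC-1 and 0.333 in CFPAC-1, and 0.533 in both after Benjamini-Hochberg adjustment. PHGDH over PSPH, the entry and exit of serine synthesis, was 1.91, 1.35, 2.80 and 2.31 in PANC-1 IKE, against 0.276 and 1.01 in PANC-1 DMSO. In CFPAC-1 it was 3.97 and 4.04 with IKE, against 1.29 and 0.826 with DMSO, so this ratio was higher with IKE in every library of both lines. The exact two-sided permutation p for that ratio was 0.0667 in PANC-1 and 0.333 in CFPAC-1, the smallest that 4 against 2 and 2 against 2 libraries allow, and 0.533 in both after Benjamini-Hochberg adjustment over the 8 ratio tests.

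PSAT1 over PHGDH separated the lines in DMSO, at 1.47 and 2.35 in PANC-1 against 0.306 and 0.492 in CFPAC-1. In PANC-1 IKE it was 1.56, 1.02, 1.22 and 0.251, with replicate 4 below every other library of either line. That library was also the shallowest and had the largest share in its 10 most abundant genes, and the part of these in its PSAT1 value was not tested. PYCR1 over ALDH18A1 was 2.85, 2.83, 2.75 and 4.96 in PANC-1 IKE, against 5.54 and 1.48 in PANC-1 DMSO, and 1.60 and 1.97 in CFPAC-1 IKE, against 1.26 and 1.35 in CFPAC-1 DMSO.

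Across the 10 libraries, with each line's mean removed, MTHFD2 and PYCR1 varied most closely together (Pearson 0.957), followed by PSAT1 with MTHFD2 (0.831) and SHMT2 with MTHFD1L (0.815). Of the 45 pairs, 32 correlated above 0 and 13 below, 8 of those below 0 involving SHMT1, and the points share libraries, depth and the contrast of IKE with DMSO. Of the 10694 other genes that averaged 5 FPKM or more, ENSG00000166986 (0.945) and ENSG00000106366 (0.932) followed the mean of the 10 enzymes most closely in this measure. They are the highest of 10694 values over 10 libraries, and how high such values run by chance was not tested. ENSG00000166986 averaged 155 FPKM in PANC-1 IKE against 136 FPKM in PANC-1 DMSO, and 67.4 FPKM in CFPAC-1 IKE against 35.6 FPKM in CFPAC-1 DMSO. Some footprints of MTHFD2, PSAT1, PSPH and SHMT1 may be shared with copies, since RefSeq lists 7, 4, 1 and 1 pseudogenes under their names. The genomic spans of MTHFD2, SHMT1 and SHMT2 overlap that of another protein-coding gene. Neither the sequences of the copies nor the strands and exons of the overlapping genes were compared. How any shared reads were assigned is not given in the sources used here.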

How the data were processed

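Values were used as deposited, in FPKM per the file headers, and all 10 library columns were matched by name. Per the submitters' processing notes, the tools were fastp, Bowtie2 2.2.8, STAR, RSEM and DESeq2 and the build GRCh38; their roles, the annotation and the strand setting are not given here. The 10 genes, gene lists and tests were chosen with earlier results of these data known. Of 20289 genes, 13125 averaged 1 FPKM or more and were tested, all 10 enzymes among them. Tests used limma 3.58.1 (R 4.3.3) on log2(FPKM + 1), which understates changes of low genes. The model held the 4 groups, 1 variance weight for each line and a mean-variance trend. Adjusted p is Benjamini-Hochberg over all tested genes, with calls made under 0.05. The weights answer a spread that was larger in PANC-1 for 87.7% of genes (median residual SD 0.481, against 0.18 in CFPAC-1). On simulated data with each gene's observed spread in each line as true, this model made more false calls in CFPAC-1 than its threshold states. A model of a line alone made fewer but also found fewer of the true changes, so both are given. All 10 enzymes are named by rule. The pathway lists and cell type markers that had been listed could not be matched to IDs and were not tested. Absolute depth is unknown and no count test was run. Replicate numbers mark no shared origin in the labels. Alternatives covered weights, pseudocount, filter, scaling, left-out libraries and a replicate block.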

Additional observations from a re-analysis of the deposited data

Results flagged for a closer look

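ALDH1L2 in PANC-1 IKE replicate 3, at 4.83 FPKM, stood apart from the other PANC-1 IKE libraries at 1.80, 1.53 and 1.73 FPKM by the gap to its nearest neighbour. It was the only such value among the 10 enzymes in that group, the only group large enough for the check. Chance gives about 1 in 20 for each enzyme checked, so 1 such value among 10 enzymes is not unusual. Without it the log2 fold change of ALDH1L2 in PANC-1 was 0.42, against 0.70 with it, and neither was called.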

How the results depend on the processing

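Precision was lowest in PANC-1, which held the shallowest libraries and the larger spread. In CFPAC-1 the 3 calls became 0 with no weights, 0 with each line fitted separately on the same genes, 2 with the filter on that line's libraries (chosen after seeing the data), 2 with the replicate block, 4 with median-ratio scaling (PYCR1 added), and 1 to 3 when a library was left out, at 1 without DMSO replicate 1 or IKE replicate 2. The average call went to 0 with the replicate block and ranged from 0 to 1 when a library was left out, at 0 without either PANC-1 DMSO library. PANC-1 and the difference had 0 of 10 called by limma in every alternative run, and the DMSO comparison had 4 to 7. The cause was not tested. Over all genes, the 46 CFPAC-1 calls became 1 with no weights, 0 fitted separately, 16 with the line's own filter, 77 with a pseudocount of 5, 9 with the replicate block, 21 without PANC-1 IKE replicates 2 and 4, and 16 to 44 with 1 library left out (16 without DMSO replicate 1). The counts were 0 to 2 in PANC-1, 0 to 9 for the average (5 as reported), 0 to 6 for the difference (3) and 2868 (without PANC-1 DMSO replicate 1) to 5621 for DMSO (4970), where quantile normalization gave 2637 higher and 2481 lower, against 2204 and 2766. The replicate block kept only replicates 1 and 2, whose deviations correlated at 0.049 in CFPAC-1 and -0.21 in PANC-1. With 1 such value for each line, this cannot tell whether libraries with the same number share an origin. Signs that turned, none called, are given with 1 library left out in turn, as lowest and highest log2 fold change. SHMT1 in CFPAC-1 ran from -0.36 to 0.0014. In PANC-1, PSPH ran from -1.07 to 0.48, SHMT2 from -0.82 to 0.33, MTHFD1L from -0.45 to 0.78, PYCR1 from -0.10 to 0.47 and ALDH18A1 from -0.65 to 0.66, with -0.0064 under quantile normalization. For the average, PSPH ran from -0.27 to 0.51 and ALDH18A1 from -0.15 to 0.50. For the difference, MTHFD1L ran from -0.94 to 0.29 and ALDH18A1 from -0.997 to 0.31, with 0.13 without PANC-1 IKE replicates 2 and 4. In DMSO, SHMT2 ran from -0.55 to 0.61 and ALDH18A1 from -0.25 to 1.05. Of the other values per enzyme, 1033 kept sign and side, 21 lost a call and 2 gained one (PYCR1 above, and PHGDH in DMSO without PANC-1 IKE replicates 2 and 4). Separate fits could not be made for the average, the difference or the DMSO comparison, nor the block for DMSO.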
